A study of Homo sapiens with 4 samples.

Results

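The regions described here are the long stretches of chromatin that carried RNA polymerase II phosphorylated on serine 2 (S2p) without a break in the authors' list of enriched regions. They were chosen by a measured value, the width of the row in the S2p list: rows on chromosomes 1 to 22 of 20000 bp or more were taken. There were 1010 such domains among 53422 S2p rows on these chromosomes (1.89%) and 54601 rows in the whole list. The data are ChIP-seq (chromatin immunoprecipitation with sequencing) of MCF10A, an established non-tumour human breast epithelial cell line grown under normal conditions with no treatment or genetic change named. The 3 ChIPs analysed were S2p, Pol II phosphorylated on serine 5 (S5p) and the DNA damage response protein 53BP1. Each had 1 library, so no replicate spread is known for any value, and no test was made. Because width chose the domains, their widths and S2p values are given as a description. The S5p and 53BP1 lists come from other libraries and were not used in the choice.

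Pol II carries a long tail of repeated residues that is phosphorylated as transcription proceeds. Serine 5 is phosphorylated around initiation by the TFIIH kinase, so S5p is typically strongest near promoters. Serine 2 is phosphorylated by P-TEFb and by CDK12 as the enzyme is released into the gene body, and S2p is typically found along the transcribed body and towards the end of the gene. Long unbroken S2p stretches are therefore usually read as transcribed gene bodies, one or several. The lists carry no strand and no gene names, so neither the direction of transcription nor the genes are given here. 53BP1 binds modified histones at DNA double-strand breaks and steers their repair, and it also interacts with p53.

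The domains were few but took up much of the S2p-marked genome. Together they covered 30.8 Mb, which was 19.9% of all S2p bases. Their median width was 26834 bp (quartiles 22636 and 33627), and the widest reached 161391 bp. Joining S2p rows across gaps of 1000 bp or less gave 1732 domains in place of 1010. Most lay close to the limit: 655 spanned 20 to 30 kb, 288 spanned 30 to 50 kb, 64 spanned 50 to 100 kb, and 3 were longer. Their median S2p fold, the authors' enrichment value for a row, was 23.1 (quartiles 13.8 and 38.1), against 3.58 over all S2p rows. Ranked by fold within the S2p list, the median domain stood at percentile 97.2. Long and strong were not the same, since the weakest domain had an S2p fold of 3.93, and width and fold were related with a Spearman rho of 0.22 across the 1010 domains.

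The limit fell in a continuous range of widths. The named domains just inside it were chr10:38398301-38418343 and chr15:66193056-66213098, both 20043 bp wide with S2p folds of 10.3 and 8.82, and chr12:110870065-110890112, 20048 bp wide with an S2p fold of 24.6. Just outside it were chr6:43462302-43482295 (19994 bp, S2p fold 46.4), chr6:33737244-33757216 (19973 bp, fold 41.3) and chr1:24988300-25008254 (19955 bp, fold 15.2). Of the rows just outside, 2 had a larger S2p fold than any of the 3 just inside.

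**Figure D1:**
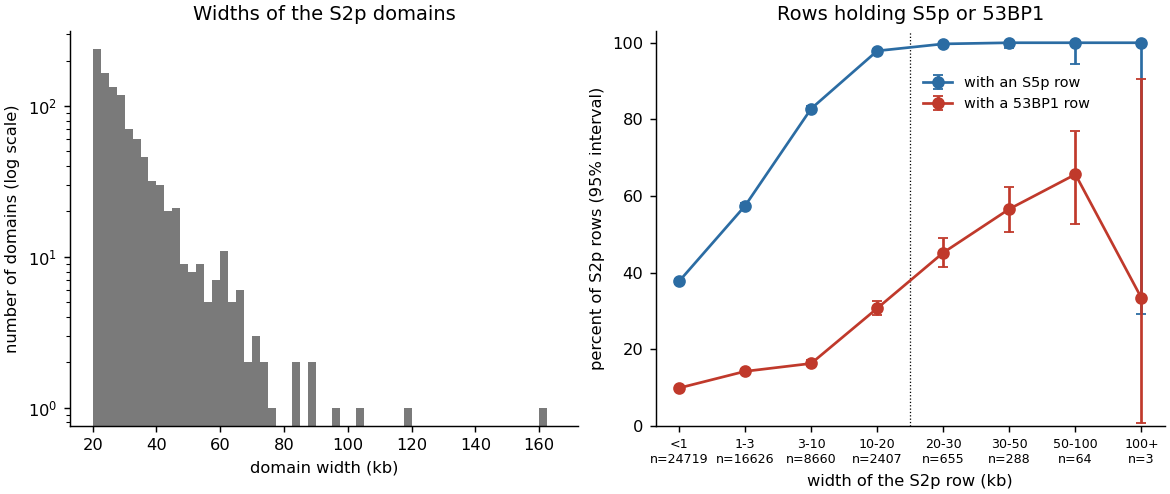
Left, the number of S2p domains (log axis) by width in kb. Right, the percent of S2p rows of each width class that held an S5p row (blue) or a 53BP1 row (red), with exact 95% intervals. The dotted line marks the 20 kb limit. S5p was already near 100% at 10 to 20 kb, while the share with 53BP1 rose from 30.7% there to 65.6% at 50 to 100 kb, and the class above 100 kb held 3 rows.

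Nearly every domain also carried S5p. An S5p row overlapped 1008 of the 1010 domains (99.8%, interval 99.3 to 99.98), where the share over S2p rows of any width was 55%. Intervals of shares here are exact Clopper-Pearson 95% intervals. They treat regions as independent and reflect counting error alone. A wider window meets more rows of any list, and the share was already 97.9% (97.2 to 98.4) in S2p rows of 10 to 20 kb and 86.1% (85.4 to 86.7) in rows of 3 to 20 kb.

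S5p did not stay at one point of the domain but spread along it. The median domain had 87.6% of its bases inside S5p rows (order-statistic interval 86.4 to 88.7, quartiles 74.0 and 94.4). Pooled over the domains, 82.3% of bases were inside S5p, against 57.8% of the bases of all S2p rows. At least 90% was covered in 431 domains (42.7%), and under 50% in 87 (8.61%). Many S5p rows cross a domain's edge, and when rows had to lie wholly inside the domain the median cover was 41.6%. Of the 601 S5p rows that were themselves 20000 bp or wider, 466 (77.5%) met an S2p domain, and 468 of the domains (46.3%) met such an S5p row.

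S5p cover took different forms. In 182 domains (18.0%) a single S5p row covered at least 90% of the length. Those domains had a median S2p fold of 29.4, the median percentile of their strongest S5p row was 97.0, and 121 of them (66.5%, 59.1 to 73.3) held 53BP1. At the other end, 32 domains were crossed by 10 or more separate S5p rows, up to 21. Those had a median S2p fold of 12.5, a median S5p cover of 65.5% and 53BP1 in 4 of 32 (12.5%, 3.51 to 29.0). The 87 domains under 50% covered had a median S2p fold of 10.4 and held 53BP1 in 4 cases (4.60%, 1.27 to 11.4). Cover, S2p fold and S5p fold moved together among the domains. Across domains the Spearman rho was 0.53 between cover and the percentile of the strongest S5p row, and 0.35 between cover and S2p fold. These points share their libraries and, for S5p, the same rows.

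Stretches with S2p but no S5p were mostly short. The longest such stretch in each domain had a median of 1864 bp (quartiles 910 and 3497). It reached 5000 bp in 142 domains (14.1%) and 10000 bp in 34 (3.37%). In 32 of those 34 an S5p summit lay inside the domain, and in 23 of the 32 the uncovered stretch was centred on the far side of the midpoint from the strongest S5p summit. The near side holds S5p by definition, so a majority on the far side is set in part by construction. These 34 domains had a median S2p fold of 10.9, and 3 of them held 53BP1 (8.82%, 1.86 to 23.7).

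No S5p at all was found in 2 domains. The wider was chr9:114950531-114973713, 23183 bp long, where the S2p fold was 10.9 and the S2p summit lay 12.5 kb from the start. The other was chr2:23903811-23923914, of 20104 bp and S2p fold 4.53. Neither held 53BP1 inside or within 5000 bp outside, and with depth unknown S5p there can only be called not detected.

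The strongest S5p summit sat at an end of the domain more often than an even spread would place it. An S5p summit lay inside 945 domains. The strongest of them, by the authors' fold, was in the outer 10% of the length at either end in 312 (33.02%, 30.02 to 36.1), where an even spread gives 20% and the share over S2p rows of any width was 14.1%. The left and right ends were alike, with 152 and 160. It lay within 1000 bp of an edge in 187 domains (19.8%). The median distance to the nearer edge was 5376 bp (quartiles 1633 and 9877). In 146 domains (15.4%, 13.2 to 17.9) it was in the middle 20% of the length. The share at the ends was 31.1% (27.5 to 35.0) at 20 to 30 kb, 33.8% (28.2 to 39.8) at 30 to 50 kb and 47.0% (34.6 to 59.7) at 50 kb or more. The intervals overlap. With S5p rows crossing an edge left out, the share was 148 of 793 (18.7%, 16.0 to 21.6). That rule takes away rows near an edge by construction, so the lower share says nothing on where the excess comes from.

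Further S5p summits were most frequent at the opposite end. Each domain was turned so that the end nearer its strongest S5p summit came first. Of the 2675 remaining S5p summits, 463 (17.3%) fell in the last 10% of the length and 279 (10.4%) in the first, against 6.24 to 7.03% in each 10% segment from the second to the fifth. The strongest summit, always on the first side, is left out of this count, which lowers the share there. Rows of the S5p list do not overlap, so no further summit can fall inside the row that holds the strongest one. The strongest S5p row meeting a domain had a median width of 17464 bp. The profile of further summits is thus set in part by construction. Both outer segments held an S5p summit in 222 domains (23.5%), one of them in 461 (48.8%) and neither in 262 (27.7%). S5p cover was highest inside the domain, at 88.8% of bases in the fourth segment, and lowest at the ends, at 69.2% in the first and 59.4% in the last.

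The S2p summit, the point that the authors' list gives as the peak of the row, lay mostly away from the edges. It was in an outer 10% segment in 97 of 1010 domains (9.60%). The edges are those of the same S2p row, so a low share there is set in part by construction. In the turned domains the S2p summit was most frequent in the fourth segment (169 of 945, 17.9%). It was on the S5p side of the midpoint in 593 (62.8%, 59.6 to 65.8) and on the far side in 352 (37.2%, 34.2 to 40.4), where S2p rows of any width gave 34.9%. The far share was 34.9% (31.1 to 38.9) at 20 to 30 kb and 48.5% (36.0 to 61.1) at 50 kb or more. Among the 312 domains with the strongest S5p summit in an outer segment, it was 48.1% (42.4 to 53.8).

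In most domains the S2p summit was more than 500 bp from the strongest S5p summit. No share for an even spread was worked out here, so whether they met more or less often than that is not given. The median distance between these summits was 5512 bp (order-statistic interval 4637 to 6215), and it was 18759.5 bp in domains of 50 kb or more. They lay within 500 bp of each other in 234 of 945 domains (24.8%, 22.04 to 27.6), against 44% in S2p rows of 3 to 20 kb and 65.1% in rows of any width. A narrow row leaves less room for its summits to part, so these shares are not adjusted for width. In domains of 50 kb or more the summits were within 500 bp in 3 of 66 (4.55%).

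**Figure D2:**
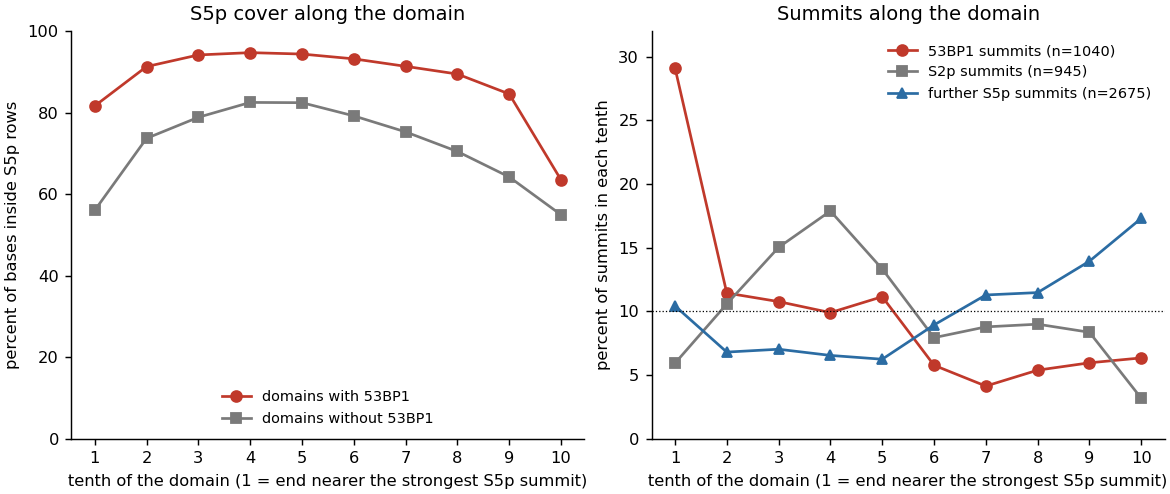
The 945 domains with an S5p summit inside, turned so that the end nearer the strongest S5p summit is segment 1, in 10 equal segments. Left, the mean percent of bases inside S5p rows for domains with and without 53BP1. Right, the percent of 53BP1 summits, S2p summits and further S5p summits in each segment, with the even share of 10% dotted. 29.1% of the 53BP1 summits were in segment 1, S2p summits peaked in segment 4 and further S5p summits in segment 10.

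53BP1 was present in 502 of the 1010 domains (49.7%, 46.6 to 52.8), where S2p rows of any width gave 13.9%. The share grew with width. It was 19.4% (18.7 to 20.1) for S2p rows of 3 to 20 kb, 45.2% (41.3 to 49.1) at 20 to 30 kb, 56.6% (50.7 to 62.4) at 30 to 50 kb and 65.6% (52.7 to 77.1) at 50 to 100 kb. Per unit of length there was no such growth. The density was highest in the shortest S2p rows, with 15.8 53BP1 rows per 100 kb of S2p under 1 kb and 8.88 at 1 to 3 kb. It was 3.70 at 3 to 20 kb, 3.73 at 20 to 30 kb and 3.61 at 30 to 50 kb. Longer domains gave 2.66 at 50 to 100 kb and 0.261 over the 3 above that. These densities are not adjusted for 53BP1 rows that reach past the edge of an S2p row. The higher share of wide domains with 53BP1 was thus not matched by a higher density.

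In all, 1082 53BP1 rows met a domain, 9.52% of the 53BP1 list on these chromosomes, where 78.9% of 53BP1 rows met an S2p row of any width. Of the domains, 246 held 1 row, 108 held 2, and 148 held 3 or more, up to 10. The rows in domains had a median 53BP1 fold of 5.66 (order-statistic interval 5.43 to 5.99), against 6.04 (5.99 to 6.08) for 53BP1 rows elsewhere. None of the 10 strongest 53BP1 rows of the list lay in a domain, and 16 of the 100 strongest did. By width, 39 of the 100 widest 53BP1 rows lay in domains. The widest of all, chr13:45897138-45909146, was 12009 bp long with a fold of 11.2. It filled the stretch from 7.86 to 19.9 kb of a 29988 bp domain, and this row was singled out after its values were seen. All but 6 of the 1082 rows also lay on S5p, against 97.6% of 53BP1 rows in general.

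Among domains with an S5p summit inside, the share with 53BP1 differed widely with the strength of the strongest one. Where the strongest S5p summit inside ranked above percentile 98 by fold within its list, 170 of 170 domains held 53BP1 (interval 97.9 to 100). From the 95th to the 98th percentile, 127 of 131 did (96.9%, 92.4 to 99.2), and from the 90th to the 95th, 117 of 126 (92.9%, 86.9 to 96.7). The share then dropped to 52 of 211 (24.6%, 19.0 to 31.0) from the 80th to the 90th percentile and 13 of 233 (5.58%, 3.004 to 9.35) from the 60th to the 80th. At or below the 60th percentile it was 6 of 74 (8.11%, 3.03 to 16.8). Domains with no S5p summit inside did not continue this order, since 17 of 65 held 53BP1 (26.2%, 16.0 to 38.5), against 4.41% (3.60 to 5.33) of such rows of 3 to 20 kb. S2p rows of 3 to 20 kb gave 100%, 98.6% and 93.1% in the same upper classes. They gave 34.8% (31.9 to 37.9) from the 80th to the 90th percentile, 1.66% (1.22 to 2.202) from the 60th to the 80th and 0.792% (0.518 to 1.16) below. A large rise from the class of 80 to 90 to that of 90 to 95 was thus found in rows of both widths. Where within these classes the share rose was not examined. Between percentiles 80 and 90 the domains held 53BP1 less often than the shorter rows, with intervals that do not overlap. In the classes up to 60 and from 60 to 80 they held it more often, over median widths of 23735 and 25256 bp against 5225 and 6937 bp. The part of length in these differences was not tested.

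The count depends on how S5p strength is read. When S5p strength was read from any S5p row touching the domain, 187 of 224 domains above the 98th percentile held 53BP1 (83.5%, 78.0 to 88.1). In the other 37 the strong S5p row had its summit outside the domain, which follows from the 170 of 170 above and is no separate result. Among the 187 with 53BP1, that summit was outside in 17 (9.09%). The 3 with the largest S5p fold among the 37 were named after their values were seen. They were chr17:7401490-7430819, whose S5p row (fold 151) had its summit 13.7 kb outside the left edge, chr13:73636570-73659535 (fold 147, 3.40 kb outside the left edge) and chr3:195768311-195803408 (fold 119, 5.52 kb outside the right edge). A 53BP1 summit lay within 5000 bp outside the chromosome 13 domain and not outside the others.

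**Figure D3:**
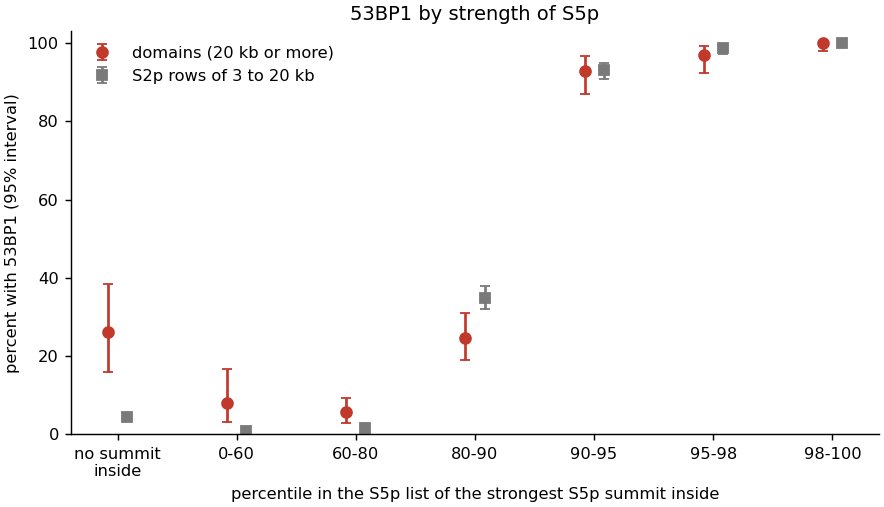
Percent of domains (red) and of S2p rows of 3 to 20 kb (grey) that held 53BP1, with exact 95% intervals, by the S5p-list percentile of the strongest S5p summit inside. The share went from 24.6% in the class from 80 to 90 to 92.9% in the class from 90 to 95 among domains. The shorter rows also rose between these classes. Domains with no S5p summit inside, at the left, stood at 26.2%.

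Domains with 53BP1 differed from those without in both Pol II marks. The 502 with 53BP1 had a median S2p fold of 32.8 (30.3 to 35.3), against 16.7 (15.6 to 18.0) for the 508 without. Their strongest S5p row had a median fold of 48.7 (45.7 to 51.4) against 8.89 (8.27 to 10.0). S5p covered a median of 91.3% of the length (90.4 to 92.4) against 80.8% (77.8 to 83.0). Their median width was 28056 bp (27121 to 29046), and that of domains without 53BP1 was 25858 bp (25256 to 26578). By S2p fold, the weakest 25% of domains held 53BP1 in 64 of 253 (25.3%, 20.1 to 31.1), and the strongest 25% in 207 of 253 (81.8%, 76.5 to 86.4). The strongest S5p percentile moved with it, from a median of 78.8 to 97.8 in the same groups, so S2p and S5p strength are not separated here. Across domains the number of 53BP1 rows had a Spearman rho of 0.67 with the S5p percentile, 0.52 with S2p fold and 0.18 with width.

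Many domains without 53BP1 had their strongest Pol II S5p beyond the edge. A stronger S5p summit lay within 5000 bp outside than any inside in 152 of the 508 (29.9%, 26.0 to 34.1), against 44 of the 502 with 53BP1 (8.76%, 6.44 to 11.6). A 53BP1 summit lay within 5000 bp outside in 115 of the 508 (22.6%, 19.1 to 26.5). The share was no lower among domains with 53BP1, where 134 of the 502 had a further summit there (26.7%, 22.9 to 30.8). The rest of the 508, 393 domains (38.9% of 1010), had no 53BP1 inside or within that distance.

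Inside domains a 53BP1 summit was more often close to the strongest S5p summit than to the S2p summit. In the 481 domains with both a 53BP1 and an S5p summit inside, the nearest 53BP1 summit was a median of 50 bp from the strongest S5p summit (order-statistic interval 40 to 59, quartiles 15 and 174). It was within 500 bp in 414 (86.1%, 82.7 to 89.0), against 91.4% in S2p rows of 3 to 20 kb and 95.3% in rows of any width. The median from the S2p summit to the nearest 53BP1 summit was 1270 bp, and 183 domains (38.0%, 33.7 to 42.6) had one within 500 bp, against 61.4% in rows of 3 to 20 kb and 80.2% in rows of any width. The nearest of several summits has more chances to be close. In the 250 domains with several 53BP1 summits, the strongest of them was within 500 bp of the strongest S5p summit in 176 (70.4%, 64.3 to 76.0). Of 231 lone 53BP1 summits, 193 (83.5%, 78.1 to 88.1) were within 500 bp of the strongest S5p summit, at a median of 59 bp. In domains of 50 kb or more, 40 of 42 had 53BP1 within 500 bp of the strongest S5p summit.

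**Figure D4:**
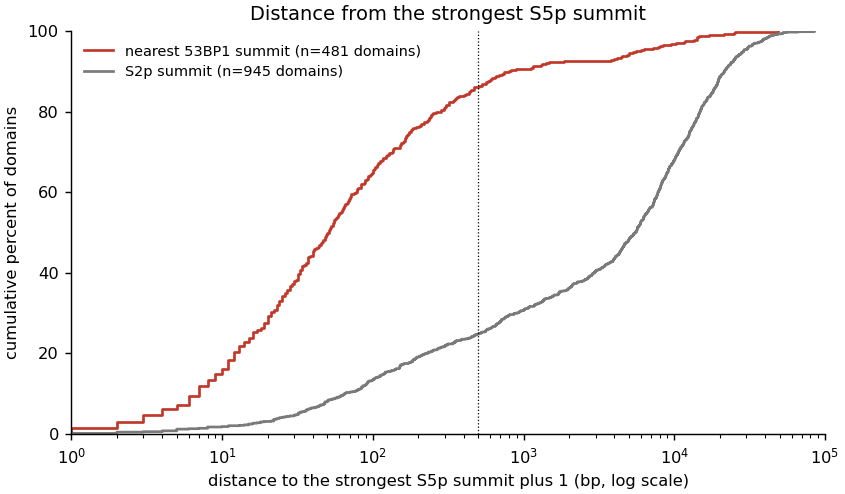
Cumulative percent of domains by distance in bp (plus 1, log axis) from the strongest S5p summit to the nearest 53BP1 summit (red, 481 domains) and to the S2p summit (grey, 945 domains). The dotted line is at 500 bp, reached by 86.1% of the domains for 53BP1 and by 24.8% for S2p.

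Along the turned domain, 53BP1 was concentrated at the S5p end. Of 1040 53BP1 summits, 303 (29.1%, 26.4 to 32) fell in the first 10% of the length, where S2p rows of any width gave 17%. Including those, 753 (72.4%, 69.6 to 75.1) were on the S5p side. Each segment beyond the midpoint held 4.13 to 6.35% of them. The direction was set by S5p and 53BP1 lay close to the S5p summit, so this profile largely repeats the place of that summit, which was itself in the first segment in 33.02% of domains. When rows crossing an edge were left out, which removes summits near the edges by construction, the first segment held 10.8% of 53BP1 summits. Lone 53BP1 summits were in the first segment in 134 of 231 domains (58.0%, 51.4 to 64.5).

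Domains with several 53BP1 rows carried them well into the body. The 559 53BP1 summits beyond the one nearest the strongest S5p summit lay a median of 10026 bp from it (quartiles 4533 and 17926). Most of them, 430 (76.9%, 73.2 to 80.4), were still inside the same S5p row. Neighbouring 53BP1 summits of a domain were a median of 3738 bp apart (quartiles 1531 and 9445). Of the outer segments, 237 of the 481 domains (49.3%) had a 53BP1 summit in the first but not the last. It was the last but not the first in 34 (7.07%), both in 27 (5.61%) and neither in 183 (38.0%). Summits between the outer segments were left out of this split, so domains of any class can also hold 53BP1 there.

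The domains with the most 53BP1 rows, leaving out chromosome 8, which was counted but not described singly, had 7 to 10 rows each. Widths ran from 25487 to 61442 bp, S2p folds from 22.2 to 240.0 and S5p cover from 84.3 to 100%. None of them was among the 10 widest domains, and 2 were among the 10 of largest S2p fold.

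The first was chr17:38611643-38658186, which was also the S2p domain of largest fold (240.0). A single S5p row with a fold of 154 covered 97.7% of it, with its summit at 46.2 kb of 46.5 kb. Its strongest 53BP1 row (fold 21.3) was at that same right end, at 46.2 kb, and one of nearly equal fold (20.8) lay at 16.0 kb, near the S2p summit at 17.0 kb. The other 8 rows had folds of 3.08 to 4.53, and 7 of them were clustered between 4.10 and 11.3 kb.

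The second was chr12:52624300-52659771, with an S2p fold of 100.3 and a strongest S5p fold of 158. It also had strong 53BP1 at separate places, with a fold of 16.9 at 2.77 kb, beside the S5p summit at 2.78 kb, and 16.3 at 26.2 kb, near the S2p summit at 24.5 kb. Its remaining 8 rows had folds of 2.64 to 6.51. The third, chr1:153513450-153542004 (S2p fold 175), was wholly covered by an S5p row of fold 158. Its 8 rows included one of fold 11.8 at 24.6 kb, beside the S5p summit at 24.5 kb, and one of fold 11.1 at 19.4 kb, beside the S2p summit at 19.6 kb. In these 3 domains the strongest 53BP1 row was at the S5p summit and the next strongest was near the S2p summit.

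Others of this group were arranged differently. In chr4:15918265-15945930 the strongest 53BP1 row (fold 11.8) lay at 21.7 kb, far from the strongest S5p summit at 2.10 kb. There 5 weaker rows (folds 2.99 to 4.46) stood between 1.75 and 5.96 kb. In chr5:176848941-176878311, the weakest of the 10 by S2p fold, rows of similar 53BP1 fold lay near the left end (7.48 at 4.82 kb) and the right end (7.99 at 25.2 kb). In chr17:79472700-79534141 the strongest row (fold 18.0) was at 7.10 kb, close to the S5p summit at 6.95 kb, and others reached as far as 46.8 kb. In chr20:62301805-62340904 the strongest (fold 10.0), the S5p summit and the S2p summit all lay between 26.3 and 26.4 kb. The remaining named domains were chr14:23432268-23457754, chr1:156694846-156732755 and chr1:1225787-1284088, with 7 rows each and largest 53BP1 folds of 6.48, 14.5 and 7.17.

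**Figure D5:**
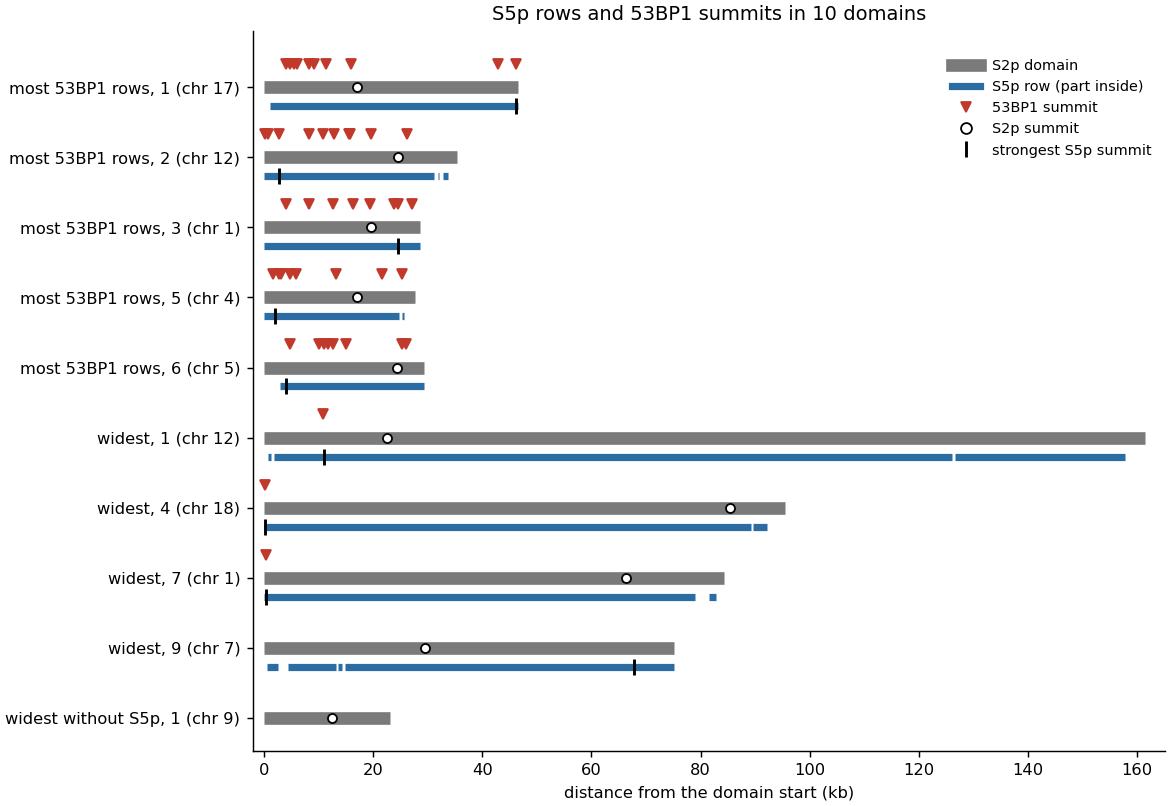
Maps of 10 of the named domains, drawn to scale from the domain start in kb: the S2p domain (grey), the parts of S5p rows inside it (blue), 53BP1 summits (red triangles), the S2p summit (open circle) and the strongest S5p summit where it lies inside (black tick). The widest domain, 161391 bp, held 1 53BP1 summit, whereas the domain of chromosome 17 at the top held 10 in 46544 bp.

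The widest domains held little 53BP1. Of the 10 widest, 74630 to 161391 bp long, 4 held 1 53BP1 row each and 6 held none. The widest, chr12:66207820-66369210, had an S2p fold of 64.4 and S5p over 96.6% of its length, with an S5p row 124036 bp wide. Its S5p summit (fold 96.4) was at 10.998 kb, its S2p summit at 22.6 kb and its lone 53BP1 row (fold 3.68) at 10.8 kb. In chr18:21452741-21548280 the strongest S5p summit (fold 21.1) and a 53BP1 row of fold 11.7 were at the left edge, at 0.270 and 0.220 kb, while the S2p summit was at 85.5 kb of 95540 bp. The arrangement of chr1:183155066-183239405 was alike, with S5p (fold 94.2) at 0.384 kb, 53BP1 (fold 8.52) at 0.366 kb and the S2p summit at 66.4 kb. In chr17:79041109-79115738, 17169 bp in a row lacked S5p, and its 53BP1 row (fold 6.04) was at 27.8 kb, away from the strongest S5p summit at 52.5 kb.

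The widest domain without 53BP1 was chr3:58077290-58195918, of 118629 bp and S2p fold 48.9. Its strongest S5p row was itself 125529 bp wide and had its summit 83.0 kb outside the left edge, and a stretch of 18127 bp had no S5p. Then came chr17:75376664-75480290, of 103627 bp and S2p fold 7.33, crossed by 11 S5p rows of which the strongest had a fold of 16.0. In chr22:36645486-36734943 the strongest S5p summit (fold 102) lay 49.04 kb outside the right edge. The domain chr17:17040703-17128251 was crossed by 18 S5p rows, the strongest of fold 13.7. In chr12:104684831-104767777 the S5p summit (fold 62.5) lay 3.92 kb outside the left edge, and 2 53BP1 summits lay within 5000 bp outside. In 3 of these 5 the strongest S5p summit was outside the S2p domain, and in the others it was at or under the 86.5th percentile of the S5p list. The remaining domain without 53BP1 among the 10 widest, chr7:130529166-130604366, had an S5p summit of fold 34.9 at 67.8 kb and no 53BP1.

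The domains of largest S2p fold all held 53BP1. These 10, with S2p folds of 136 to 240.0, were 21866 to 46544 bp wide and held 2 to 10 53BP1 rows, with a largest 53BP1 fold of 8.82 to 42.0. The lowest percentile of their strongest S5p rows was 99.3. None was among the 10 widest. In chr1:173810364-173838812 (S2p fold 209), the 53BP1 row of largest fold in any domain (42.0) lay at 26.7 kb, at the S5p summit. The S2p summit was at 21.4 kb, inside another 53BP1 row of fold 12.3 that ran from 18.2 to 21.9 kb. In chr17:79791165-79836339 (S2p fold 179), all 3 summits lay at 33.9 kb. In chr22:30792778-30827545 (fold 159) they were within 27.2 to 27.3 kb. In chr11:65645587-65668386 (fold 159) and chr1:28886518-28909299 (fold 141), S5p and the strongest 53BP1 row shared a place near the right edge. They were at 22.2 of 22.8 kb and 21.8 of 22.8 kb, with the S2p summit further in at 13.0 and 17.5 kb. A second 53BP1 row spanned the S2p summit in both domains, with folds of 8.53 and 10.7. In chr16:89602754-89637129 (fold 171), S5p and the strongest 53BP1 row (fold 13.1) were at 24.3 and 24.4 kb. A 53BP1 row of nearly equal fold (12.7) lay at 29.4 kb, beside the S2p summit at 29.2 kb. In chr11:122919809-122948982 (fold 136), S5p and the strongest 53BP1 row were at 13.0 kb. The S2p summit at 5.13 kb lay inside a weaker 53BP1 row, of fold 8.01. Among these 10, the strongest 53BP1 row was away from the strongest S5p summit only in chr19:13932164-13954029 (fold 137). There the S5p and S2p summits lay together at 12.3 and 12.4 kb. The strongest 53BP1 row, of fold 25.4, was at 21.5 kb, near the right edge.

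A few domains held 53BP1 although no S5p row touching them exceeded the 80th percentile. There were 8, of which 7 lay outside chromosome 8, and they were singled out after their values were seen. Their 53BP1 folds were low, at 3.31 to 4.10 in 5 of the 7. The exceptions were chr1:201958546-201979848 with a 53BP1 fold of 7.48 at 21.2 kb, beside its S5p summit at 21.3 kb, and chr7:102055627-102076305 with 6.04 at 18.3 kb. The widest of the 7 was chr1:228085836-228119185, 33350 bp long, with 53BP1 (fold 3.31) at 9.82 kb and its strongest S5p summit (fold 7.05) at 19.3 kb.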

How the data were processed

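ChIP-seq lists of 53BP1, Pol II S5p and Pol II S2p from MCF10A were used, with 1 library each; the input was not analysed here. Cells were fixed with formaldehyde and chromatin was sonicated, per the labels' protocols. Per the submitters' processing notes, the build is hg19, and bcl2fastq 2.20.0.422 is the tool named. For aligner, peak caller, settings, control and read depth nothing is given in the sources used here, so whether reads were pooled is unknown, although each list's peak names carry a single library name.

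The deposited fold enrichment is the authors' ratio over background. The −log10 p-value and −log10 q-value are also as deposited, the lowest −log10 q-value being 1.30, and the deposited score is 10 times the −log10 q-value in whole numbers. They describe and rank rows within a list.

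Rows on chromosomes 1 to 22 were kept. Rows overlapping by at least 1 bp were counted as present, and summits gave positions. Percentiles rank folds among a list's rows on these chromosomes. Positions count from 1 on hg19. Gene tables of GRCh38 were the ones given, so no gene was named, the planned comparison with genes was not run and no sequence was printed. Domains described singly are the 10 widest, the 10 of largest S2p fold, the 10 with most 53BP1 rows, the 5 widest without 53BP1, those without S5p and the 3 on each side of the width limit, outside chromosome 8. The domains and these rules were chosen with earlier results of these data known. The shares by position were recovered on simulated data with a lone narrow S5p row in each domain and any 53BP1 placed on it. Rows crossing an edge, and several S5p rows in a domain, were not simulated. Versions were matplotlib 3.10.9, scipy 1.17.1, pandas 2.3.3, numpy 2.4.6 and Python 3.11.15. Alternatives covered the width limit, stricter rows, containment, joined rows, chromosome X and the ranking of S5p.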

Additional observations from a re-analysis of the deposited data

How the results depend on the processing

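A width limit of 10000 bp gave 3417 domains, with S5p in 98.4% and 53BP1 in 36.3%. Median S5p cover was then 80.3%, the strongest S5p summit was in an outer 10% segment in 26.7%, and the S2p summit was beyond the midpoint in 33.6%. A limit of 50000 bp gave 67 domains, and the same values were 100%, 64.2%, 92.2%, 47.0% and 48.5%, with 35.2% of 53BP1 summits in the first segment. With S5p and 53BP1 rows of −log10 q-value 5 or more, S5p was in 98.8% and 53BP1 in 44.5%, cover was 85.3% and the first segment held 37.5% of 53BP1 summits. Fewer rows lower presence and cover by construction. With rows wholly inside the domain the values were 78.5% for S5p, 46.4% for 53BP1, 41.6% for cover, 18.7% for outer S5p summits and 10.8% for 53BP1 summits in the first segment, since rows crossing an edge were left out. Joining S2p rows across gaps of 1000 bp or less gave 1732 domains, with a cover of 77.2% and 33.6% of 53BP1 summits in the first segment. Searching for the S5p summit up to 5000 bp beyond both edges, chosen after seeing the data, gave 47.8% at or beyond the outer segments and 41.5% of S2p summits beyond the midpoint. The cause of the other changes was not tested. Adding chromosome X, or ranking S5p by −log10 q-value, kept each value within its interval (the number of domains within 1.5 times). No paired analysis was possible because there was a single library of every mark, and for that reason none could be left out. The planned comparison with annotated genes was not run. With read depth unknown, a domain without 53BP1 or S5p is one where it was not detected.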

Other observations

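Domains were unevenly spread over the chromosomes. They made up 3.51% of the S2p rows of chromosome 19 (96 of 2735, interval 2.85 to 4.27), 3.17% of chromosome 17 (92 of 2903, 2.56 to 3.87), 3.08% of chromosome 22 (42 of 1363) and 3.02% of chromosome 20 (45 of 1490). The lowest shares were 0.830% on chromosome 13 (9 of 1084, 0.380 to 1.57), 0.855% on chromosome 18 (8 of 936) and 0.901% on chromosome 6 (24 of 2664), against 1.89% over all. Among chromosomes with 20 or more domains, 53BP1 was present in 60.3% of the 63 on chromosome 11 and 59.1% of the 115 on chromosome 1, and in 25.8% of the 31 on chromosome 10.

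Whether S5p rows that met a domain carried 53BP1 more or less often than S5p rows elsewhere depended on how they were grouped, in a description made after the lists had been examined. Over S5p rows of any kind, 15.2% held 53BP1. Ungrouped, 706 of 3831 rows meeting a domain did (18.4%, 17.2 to 19.7), against 15.0% (14.7 to 15.3) elsewhere. Within width classes below 20 kb the share was lower in domains. For S5p rows of 2 to 5 kb, 55 of 725 in domains held 53BP1 (7.59%, 5.77 to 9.76), against 33.9% (32.9 to 34.9) of 9332 elsewhere. Their S5p folds differed too, with medians of 4.56 and 6.51. For rows of 10 to 20 kb it was 47.2% (42.1 to 52.4) of 379 against 69.1% (66.2 to 72.0) of 1034, with median S5p folds of 13.4 and 30.9. At 20 kb or more it was 80.04% (76.1 to 83.6) against 83.0% (75.5 to 88.9), with median folds of 43.0 and 44.1. In the strongest quintile of the S5p list by fold the shares were 72.8% (69.9 to 75.7) and 71.3% (70.5 to 72.1). In the next quintile they were 1.49% (0.817 to 2.49) and 3.85% (3.51 to 4.23), and in the 3 weaker ones they were under 1% in both. The part of S5p fold in the differences by width was not tested.

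The ends of a domain were often set by short breaks. The smallest gap between S2p rows was 379 bp, and another S2p row lay within 1000 bp of 719 domains (71.2%, 68.3 to 74.0), against 54.7% (54.3 to 55.1) of S2p rows in general. The median gap from a domain to the nearest S2p row was 615.5 bp (588 to 648). In 44 cases the next S2p row was a second domain within 5000 bp. What sets the smallest gap is not given in the sources used here.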
